A study of Homo sapiens with 12 samples.

Results

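YAP1 and WWTR1, the transcriptional co-activators YAP and TAZ, were among 10 genes of the YAP/TEAD branch of the Hippo pathway that were read in every library of this series. They were chosen by symbol, with earlier results of these data known. The co-activators were YAP1 and WWTR1 and the DNA-binding partners TEAD1 and TEAD4. The targets were CYR61 (now CCN1), ANKRD1 and CRIM1, and the regulators were AMOTL2, AJUBA and LATS2. All 10 were found among the 19907 symbols measured, and all 10 were among the 18579 genes tested. YAP1, WWTR1, CYR61, CRIM1 and LATS2 were 1.40- to 1.70-fold lower in S134A-GR than in wt-GR cells, with or without TGFβ1. After TGFβ1, ANKRD1 rose and WWTR1, TEAD4, AMOTL2 and AJUBA fell in both lines. Of 22 alternative fits, 6 lost the call of ANKRD1 in wt-GR cells, 2 that of TEAD4 in wt-GR cells and 1 that of AMOTL2 in S134A-GR cells. The fall of AMOTL2 was smaller in S134A-GR cells, but this call was lost when most single libraries were left out.

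The 12 libraries came from MDA-MB-231, a human triple-negative breast cancer cell line of mesenchymal type. They fell into 4 groups of 3: wt-GR with vehicle, wt-GR with TGFβ1, S134A-GR with vehicle and S134A-GR with TGFβ1. In S134A-GR cells, CRISPR/Cas9 knock-in at the endogenous NR3C1 gene replaced a serine of the glucocorticoid receptor (GR) by alanine, as the name S134A states, so that this site cannot be phosphorylated. The wt-GR cells were a non-targeted clone recovered from the same edited population and the S134A-GR cells were 1 clone with both alleles edited (clone #1), so the mutation cannot be told apart from differences between clones. All cells were starved for 18 h in IMEM with 1% charcoal-stripped serum. Vehicle or TGFβ1 at 10 ng/mL was then given over 6 h, and no glucocorticoid was added. The design asks whether the transcriptional response to TGFβ1 needs phosphorylation of this serine. The point mutation itself cannot be checked from counts per gene.

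YAP and TAZ do not bind DNA themselves. When the kinases LATS1 and LATS2 phosphorylate them they are held in the cytoplasm, and when they are not phosphorylated they enter the nucleus and switch on genes through TEAD proteins. Several targets, LATS2 and AMOTL2 among them, act back on YAP and TAZ, and TGFβ is known to work together with YAP, TAZ and TEAD on shared targets such as CTGF and CYR61. RNA levels do not report on the phosphorylation or location of YAP and TAZ.

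The libraries held 56362036 to 129832227 reads assigned to genes, and every value below is a count normalized by the authors to a common depth. Counts of replicates differed beyond sampling noise (chi-square over its degrees of freedom from 9.06 to 46.2), and the widest gap was between replicates 1 and 3 of wt-GR with vehicle. Nothing in the labels says that replicates were separate cultures, so p-values measure the spread between these libraries. VIM, CD44, AXL and EGFR, which mark mesenchymal MDA-MB-231 cells, each had group means of at least 15379 normalized counts, while the epithelial and luminal genes CDH1 and ESR1 and the leukocyte gene PTPRC had group means of at most 9.37. The epithelial gene EPCAM (339 to 1024), the receptor gene ERBB2 (7734 to 10494) and the endothelial gene PECAM1 (835 to 1358) were above these near-zero levels, so those expected to be low were not all absent. These 3 also moved with the line: EPCAM was 2.72-fold lower in S134A-GR cells with vehicle and 2.99-fold lower with TGFβ1 (log2 fold change -1.44 and -1.58; limma, adjusted p = 5.7e-08 and 2.6e-08), PECAM1 was lower (-0.25 and -0.34; adjusted p = 0.010 and 0.0016) and ERBB2 higher (0.24 in both; adjusted p = 0.00028 and 0.00031), and their part in the differences between the lines was not tested. SMAD7, a feedback inhibitor induced by TGFβ, rose 2.29-fold in wt-GR and 2.49-fold in S134A-GR cells with TGFβ1 (log2 fold change 1.19 and 1.32, SE 0.07 each; limma, adjusted p = 1.5e-08 and 6.5e-09), and PMEPA1, another TGFβ target, rose 7.47-fold and 4.55-fold (2.90 and 2.18, SE 0.05 each; adjusted p = 1.2e-13 and 4.5e-12).

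**Figure D1:**
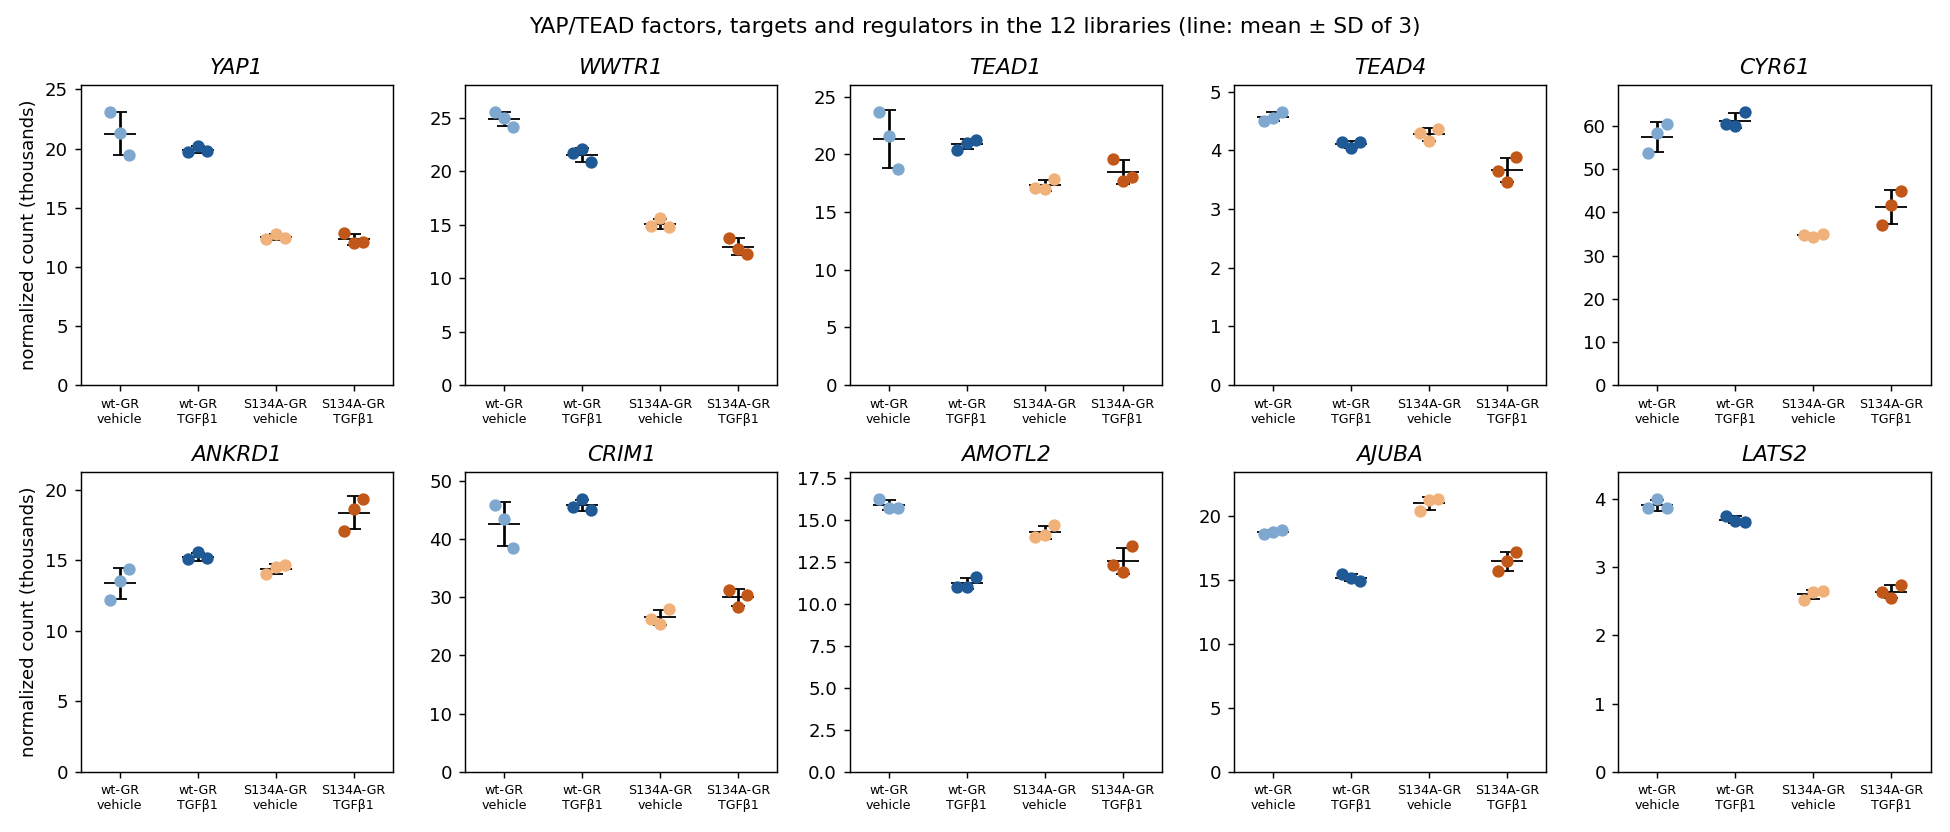
Normalized count in units of 1000 (axis from 0) of each of the 10 genes in the 12 libraries, by group, with 1 point per library and a line and bar for the mean ± SD of 3. YAP1, WWTR1, CYR61, CRIM1 and LATS2 sit lower in both S134A-GR groups than in both wt-GR groups, while AMOTL2 and AJUBA sit lower in both TGFβ1 groups than in the vehicle group of the same line.

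Between the lines under vehicle, 1 of the 10 genes passed as higher in S134A-GR cells and 7 passed as lower at an adjusted p under 0.05, with limma on log2 normalized counts and Benjamini-Hochberg adjustment over all 18579 genes. Of all genes tested, 25% were higher and 26.5% were lower in the same comparison. Under TGFβ1, 3 of the 10 were higher and 7 were lower, against 23.1% and 25.7% of all genes. The median log2 difference of the 10 genes was -0.44 under vehicle and -0.33 under TGFβ1, beside 0.02 and 0.01 over all genes tested. None of the 10 differed by a log2 fold change of 1 or more. The 10 genes were chosen with earlier results of these data known. Their counts and medians, here and for the responses below, are therefore not a test of the pathway.

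Of the co-activators, YAP1 (chromosome 11, 102110447 to 102233424, plus strand, GRCh38) had normalized counts of 23071, 21277 and 19451 in wt-GR cells with vehicle and 19685.5, 20228 and 19776 with TGFβ1. In S134A-GR cells the counts of YAP1 were 12334, 12769 and 12416 with vehicle and 12860.3, 12027 and 12069.9 with TGFβ1. Every S134A-GR library was below every wt-GR library, and vehicle and TGFβ1 overlapped within each line. YAP1 was 1.70-fold lower under vehicle (log2 fold change -0.76, SE 0.05, adjusted p = 2.4e-08) and 1.62-fold lower under TGFβ1 (-0.69, SE 0.05, adjusted p = 6.8e-08). The wt-GR vehicle libraries spread most for this gene (SD 8.51% of the mean), and over all alternatives and omissions of 1 library the vehicle difference lay between -0.83 and -0.70. An antisense long noncoding RNA covers 9.95% of the exon bases of YAP1, and since the strand setting of the counting is not given in the sources used here, its reads could not be separated.

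WWTR1, which encodes TAZ (chromosome 3, 149517235 to 149736714, minus strand), had counts of 25541, 24989 and 24197 in wt-GR cells with vehicle and 21717, 22116 and 20857 with TGFβ1. The same gene had 14879, 15622 and 14799 in S134A-GR cells with vehicle and 13789.5, 12772 and 12260.2 with TGFβ1. WWTR1 thus separated the libraries both by line and by treatment. It was 1.65-fold lower in S134A-GR cells with vehicle (log2 fold change -0.72, SE 0.04, adjusted p = 9.7e-09) and 1.67-fold lower under TGFβ1 (-0.74, SE 0.04, adjusted p = 8.9e-09). Its antisense gene WWTR1-AS1 overlaps 9.05% of its exon bases.

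The TEAD proteins carry YAP and TAZ to DNA. TEAD1 (chromosome 11, 12674421 to 12944737, plus strand) had counts of 23639, 21589 and 18697 in wt-GR cells with vehicle and 20374, 20934 and 21234 with TGFβ1. For TEAD1 in S134A-GR cells the counts were 17069, 16999.9 and 17832 with vehicle and 19605, 17672 and 18034 with TGFβ1. The lines did not overlap under either treatment, but the gap was small beside the spread of the wt-GR vehicle libraries (SD 11.7% of the mean). TEAD1 was 1.23-fold lower under vehicle (log2 fold change -0.29, SE 0.07, adjusted p = 0.0017) and 1.13-fold lower under TGFβ1 (-0.18, SE 0.07, adjusted p = 0.037). The call under TGFβ1 was lost without any 1 of 5 libraries (wt-GR TGFβ1 replicates 1, 2 and 3, S134A-GR TGFβ1 replicates 2 and 3), with adjusted p from 0.055 to 0.13.

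TEAD4 (chromosome 12, 2959330 to 3040676, plus strand) was measured at 4500.4, 4559 and 4651 in wt-GR cells with vehicle and 4140.4, 4034 and 4138 with TGFβ1. In S134A-GR cells TEAD4 had 4303, 4153 and 4357 with vehicle and 3653, 3467 and 3883 with TGFβ1. TEAD4 was 1.12-fold lower in S134A-GR cells under TGFβ1 (log2 fold change -0.16, SE 0.04, adjusted p = 0.0058). Under vehicle its difference was -0.10 (95% interval -0.19 to -0.01, adjusted p = 0.072), which did not pass, although the libraries did not overlap.

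The targets did not move alike between the lines. CYR61 (chromosome 1, 85580761 to 85584589, plus strand), a secreted matricellular protein and classical YAP target, had 53700, 58400.4 and 60572 in wt-GR cells with vehicle and 60455, 60138 and 63243 with TGFβ1. Its counts in S134A-GR cells were 34723, 34387 and 35109.5 with vehicle and 37059, 41623.5 and 45089.9 with TGFβ1. No S134A-GR library reached the lowest wt-GR library. CYR61 was 1.65-fold lower under vehicle (log2 fold change -0.73, SE 0.06, adjusted p = 2.0e-07) and 1.49-fold lower under TGFβ1 (-0.57, SE 0.06, adjusted p = 2.2e-06).

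CRIM1 (chromosome 2, 36355778 to 36551135, plus strand), a transmembrane protein with cysteine-rich repeats, had 45768, 43450 and 38391 in wt-GR cells with vehicle and 45558, 46857 and 44969 with TGFβ1. Its S134A-GR counts were 26320, 25416 and 27958 with vehicle and 31166.5, 28329.8 and 30363 with TGFβ1. As for CYR61, the lines did not overlap under either treatment. CRIM1 was 1.60-fold lower under vehicle (log2 fold change -0.68, SE 0.06, adjusted p = 2.9e-07) and 1.53-fold lower under TGFβ1 (-0.61, SE 0.06, adjusted p = 8.5e-07).

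ANKRD1 (chromosome 10, 90912096 to 90921087, minus strand), a nuclear ankyrin-repeat protein and another classical YAP target, went the other way. It had 12157, 13509.9 and 14385 in wt-GR cells with vehicle and 15067, 15577 and 15117 with TGFβ1. The ANKRD1 counts of S134A-GR cells were 13985, 14498 and 14630 with vehicle and 17052, 18655 and 19334 with TGFβ1. The vehicle groups overlapped and the TGFβ1 groups did not. ANKRD1 was 1.20-fold higher in S134A-GR cells under TGFβ1 (log2 fold change 0.26, SE 0.06, adjusted p = 0.0013), while its vehicle difference of 0.11 (95% interval -0.01 to 0.23, adjusted p = 0.12) did not pass. That difference rested on single wt-GR vehicle libraries, at 0.04 (adjusted p = 0.50) without replicate 1 and 0.16 (adjusted p = 0.019) without replicate 3.

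For ANKRD1, AMOTL2 and AJUBA, which changed with TGFβ1 in both lines, the promoter window that holds the TEAD motif is printed 5′ to 3′. The RefSeq promoter table (GRCh38.p14, 250 bases before to 50 after a start) had entries for 6 of the 10 genes, with 9 windows in all. CATTCC, the core of the TEAD motif, was searched on both strands and lay in 5 of the 9 windows, those of YAP1, ANKRD1, AMOTL2, AJUBA and LATS2, beside 14.03% of 35116 promoters of this length. The AP-1 motif TGANTCA, which reads the same on both strands, was in the ANKRD1 window only, beside 7.71% of all promoters, and the CArG box of SRF was in none, beside 1.29%. Capitals mark CATTCC or its complement GGAATG (positions -220 and -128 from the start in ANKRD1, -69 in AMOTL2, -59 in AJUBA) and TGANTCA (-195 in ANKRD1). The other window of AMOTL2 (chr3:134375368-134375667) and that of AJUBA (chr14:22982502-22982801) held no CATTCC. These windows span the annotated start of the gene, and the printed windows of AMOTL2 and AJUBA lie inside the gene. No window of WWTR1, which also changed in both lines, held CATTCC. The marked matches are letters in a window, and no binding was measured. The windows are chr10:90921038-90921337 for ANKRD1, chr3:134374398-134374697 for AMOTL2 and chr14:22976793-22977092 for AJUBA, all on the minus strand.
ANKRD1: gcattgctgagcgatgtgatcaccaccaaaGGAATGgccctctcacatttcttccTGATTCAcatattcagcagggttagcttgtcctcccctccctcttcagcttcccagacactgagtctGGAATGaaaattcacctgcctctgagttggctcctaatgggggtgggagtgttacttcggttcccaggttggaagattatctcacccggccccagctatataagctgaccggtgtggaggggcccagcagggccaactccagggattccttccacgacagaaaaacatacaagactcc
AMOTL2: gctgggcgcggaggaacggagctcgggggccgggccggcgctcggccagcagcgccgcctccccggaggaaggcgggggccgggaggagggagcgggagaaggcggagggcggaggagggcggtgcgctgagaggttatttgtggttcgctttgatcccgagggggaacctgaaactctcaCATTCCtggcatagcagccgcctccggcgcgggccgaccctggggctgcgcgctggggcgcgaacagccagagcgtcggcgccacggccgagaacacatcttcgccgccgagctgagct
AJUBA: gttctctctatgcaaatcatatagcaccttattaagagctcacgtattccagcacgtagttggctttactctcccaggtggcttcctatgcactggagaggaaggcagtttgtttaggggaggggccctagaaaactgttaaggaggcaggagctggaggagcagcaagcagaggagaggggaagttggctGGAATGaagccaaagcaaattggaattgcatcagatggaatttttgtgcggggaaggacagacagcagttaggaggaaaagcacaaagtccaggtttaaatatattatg

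Of the regulators, AMOTL2 (chromosome 3, 134355347 to 134375479, minus strand), an angiomotin-family protein that binds YAP at junctions, had 16230.4, 15691 and 15693 in wt-GR cells with vehicle and 11012.5, 11006 and 11587 with TGFβ1. In S134A-GR cells AMOTL2 had 13941, 14101 and 14702 with vehicle and 12278, 11897.5 and 13403 with TGFβ1. The groups did not overlap in any of the 4 comparisons, and the order of the lines turned over: S134A-GR was 1.11-fold lower under vehicle (log2 fold change -0.16, SE 0.04, adjusted p = 0.0076) and 1.12-fold higher under TGFβ1 (0.16, SE 0.04, adjusted p = 0.0070).

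AJUBA (chromosome 14, 22971177 to 22982551, minus strand), a LIM-domain scaffold that restrains the LATS kinases, had 18542.5, 18713 and 18877 in wt-GR cells with vehicle and 15418, 15127 and 14919 with TGFβ1. For AJUBA the S134A-GR counts were 20375, 21228 and 21300 with vehicle and 15698, 16455 and 17172 with TGFβ1. It was the only one of the 10 genes to pass as higher in S134A-GR cells under both treatments, 1.12-fold under vehicle (log2 fold change 0.16, SE 0.04, adjusted p = 0.0014) and 1.08-fold under TGFβ1 (0.12, SE 0.04, adjusted p = 0.014). The second call was lost without wt-GR TGFβ1 replicate 3 (adjusted p = 0.053) or S134A-GR TGFβ1 replicate 3 (adjusted p = 0.072).

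LATS2 (chromosome 13, 20973036 to 21061586, minus strand), one of the kinases that phosphorylate YAP and TAZ, had 3862, 3996 and 3858 in wt-GR cells with vehicle and 3748, 3669 and 3659 with TGFβ1. Its counts in S134A-GR cells were 2522, 2628 and 2649 with vehicle and 2636, 2546 and 2739 with TGFβ1. The lines were far apart beside a replicate SD of at most 3.65% of the mean. LATS2 was 1.502-fold lower in S134A-GR cells with vehicle (log2 fold change -0.59, SE 0.04, adjusted p = 3.5e-08) and 1.40-fold lower under TGFβ1 (-0.48, SE 0.04, adjusted p = 2.5e-07).

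**Figure D2:**
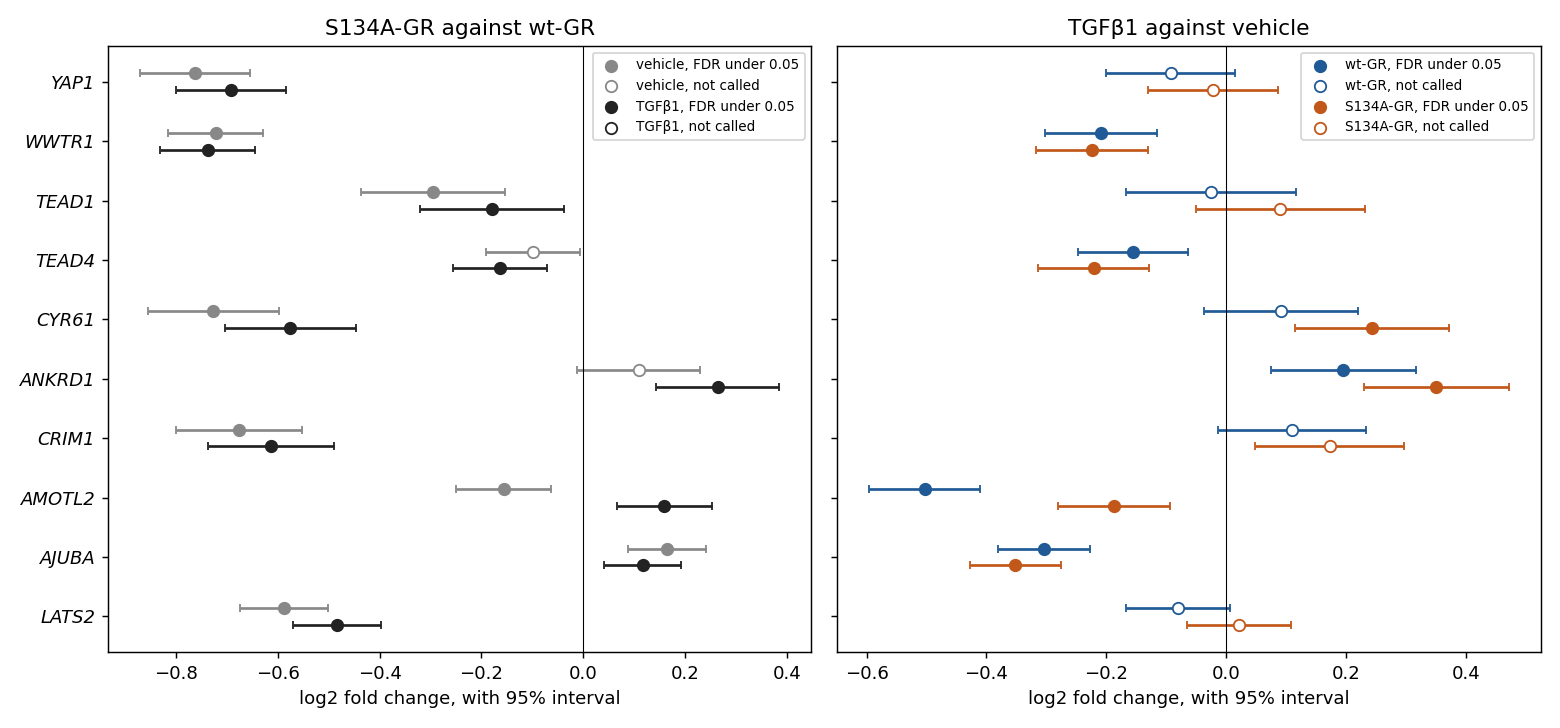
Log2 fold change with its 95% interval for the 10 genes, S134A-GR against wt-GR under each treatment on the left and TGFβ1 against vehicle in each line on the right, with filled points for an adjusted p under 0.05 and open points for the rest. On the left, YAP1, WWTR1, CYR61, CRIM1 and LATS2 lie between -0.76 and -0.48 under both treatments. On the right, AMOTL2 is at -0.50 in wt-GR and -0.19 in S134A-GR cells.

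With TGFβ1, 1 of the 10 genes rose and 4 fell in wt-GR cells, against 11.2% and 9.82% of all genes tested. In S134A-GR cells 2 rose and 4 fell, against 10% and 8.69%. The count of 5 calls in wt-GR cells dropped to 3 without wt-GR vehicle replicate 2 or wt-GR TGFβ1 replicate 2, when ANKRD1 and TEAD4 no longer passed. The line comparisons and the responses share libraries, so a gene's values in them are not independent.

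Among the 10 genes AMOTL2 had the largest response in wt-GR cells, and AJUBA and ANKRD1 the largest in S134A-GR cells. AJUBA fell 1.23-fold in wt-GR cells (log2 fold change -0.30, SE 0.04, adjusted p = 2.4e-05) and 1.28-fold in S134A-GR cells (-0.35, SE 0.04, adjusted p = 7.0e-06). AMOTL2 fell 1.42-fold in wt-GR cells (log2 fold change -0.50, SE 0.04, adjusted p = 1.1e-06) and 1.14-fold in S134A-GR cells (-0.19, SE 0.04, adjusted p = 0.0073). The call for AMOTL2 in S134A-GR cells was lost when the fit held only those 6 libraries (adjusted p = 0.058).

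WWTR1 fell 1.16-fold in wt-GR cells (log2 fold change -0.21, SE 0.04, adjusted p = 0.0033) and 1.17-fold in S134A-GR cells (-0.22, SE 0.04, adjusted p = 0.0022). TEAD4 fell 1.11-fold (-0.16, SE 0.04, adjusted p = 0.019) and 1.17-fold (-0.22, SE 0.04, adjusted p = 0.0022). Of the targets, ANKRD1 rose 1.15-fold in wt-GR cells (log2 fold change 0.20, SE 0.06, adjusted p = 0.024) and 1.28-fold in S134A-GR cells (0.35, SE 0.06, adjusted p = 0.00049). The wt-GR call for ANKRD1 was lost without any 1 of 5 libraries (wt-GR vehicle replicates 1 and 2, all 3 of wt-GR TGFβ1) and in a fit of the wt-GR libraries alone, with adjusted p from 0.054 to 0.094.

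CYR61 rose 1.18-fold in S134A-GR cells (log2 fold change 0.24, SE 0.06, adjusted p = 0.011; 0.074 in a fit of those 6 libraries alone). Its value in wt-GR cells, 0.09 (95% interval -0.04 to 0.22, adjusted p = 0.33), did not pass. CRIM1 in S134A-GR cells was at 0.17 (95% interval 0.05 to 0.30, adjusted p = 0.052), just outside the threshold, and edgeR (adjusted p = 0.047) and DESeq2 (0.019) on recovered reads called it higher. LATS2 was lower with TGFβ1 in all 3 wt-GR libraries than in any with vehicle, but its log2 fold change of -0.08 did not pass (adjusted p = 0.19). YAP1, TEAD1, CRIM1 and LATS2 passed in neither line, with log2 fold changes from -0.09 to 0.17 and, for YAP1, intervals of -0.20 to 0.02 in wt-GR and -0.13 to 0.09 in S134A-GR cells. The wt-GR value of YAP1 was -0.03 (adjusted p = 0.70) without wt-GR vehicle replicate 1 and -0.16 (adjusted p = 0.015), past the threshold, without replicate 3.

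The responses of the lines were compared directly by the difference of the TGFβ1 responses, S134A-GR minus wt-GR. Only AMOTL2 passed among the 10 genes, with a difference of 0.32 (95% interval 0.18 to 0.45, SE 0.06, adjusted p = 0.042), beside 0.414% of all genes in either direction. The size held between 0.27 and 0.35 over all alternatives, but the adjusted p rose to between 0.061 and 0.15 when 1 library was left out, for every library except wt-GR vehicle replicate 3 and S134A-GR TGFβ1 replicate 2. For the other 9 genes the 95% intervals of the difference lay between -0.20 and 0.33, so the larger response of CYR61 and ANKRD1 in S134A-GR cells was not shown to differ from that in wt-GR cells (adjusted p = 0.61 and 0.58).

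Levels were set against each other per kilobase of exon, with all annotated exons of a gene merged. CYR61 stood highest in every group, at 15565 ± 949.9 normalized counts per kilobase (SD, n = 3) in wt-GR cells with vehicle and 9394 ± 97.8 in S134A-GR cells with vehicle. ANKRD1 was next, at 7459 ± 627 and 8028 ± 190, and CRIM1 followed at 5851 ± 519 and 3654 ± 177. In S134A-GR cells with TGFβ1 the libraries of CYR61 (11157 ± 1089) and ANKRD1 (10249.6 ± 655) overlapped, whereas CYR61 was clear of ANKRD1 in the other groups. LATS2 was lowest in all 4 groups, from 463 to 696 per kilobase.

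YAP1 (3369.7 ± 287 per kilobase) and WWTR1 (2982 ± 80.9) took places 4 and 6 in wt-GR cells with vehicle, where YAP1 overlapped AJUBA. In S134A-GR cells with vehicle YAP1 (1982 ± 36.6) took place 6 and WWTR1 (1808 ± 54.3) place 8, the latter overlapping TEAD4 (1877 ± 46.5). Per kilobase, among tested genes with an annotated exon length, YAP1 ranked above 93.3% in wt-GR and above 88.3% in S134A-GR cells with vehicle.

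The genes that lie beside several of the 10 on the chromosome differed between the lines in the same direction. For each gene, neighbours starting within 2 Mb on either side were taken. YAP1 had 16 tested neighbours with a median log2 difference under vehicle of -0.73, beside -0.76 for YAP1 itself. Among the 9 of them with a mean normalized count of at least 100, a minimum chosen after seeing the data and used for the counts of neighbours from here on, 8 were lower in S134A-GR cells and 1 was higher. Over all 12171 such genes with a known position the median was -0.02 and 34.9% were lower.

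Near YAP1, the apoptosis inhibitor genes BIRC2 and BIRC3 differed by log2 -0.89 (adjusted p = 6.0e-10) and -1.40 (adjusted p = 1.5e-07), TMEM123 by -0.98 and DCUN1D5 by -0.78. CEP126 (-0.68) and DYNC2H1 (-0.42) differed less, and under TGFβ1 DYNC2H1 did not pass (-0.14, limma, adjusted p = 0.52). The collagenase gene MMP1, within 1 Mb of YAP1, was at 636 ± 29.9 normalized counts in wt-GR and 195 ± 28.5 in S134A-GR cells (SD, n = 3; log2 -1.71, adjusted p = 1.9e-08). MMP3, in the same cluster, was higher instead, at 75.9 ± 16.5 and 118 ± 2.07 (log2 0.65, adjusted p = 0.0047). Under TGFβ1 the same neighbours of YAP1 with a mean of at least 100 had a median difference of -0.70.

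LATS2 had a difference of -0.59 beside a median of -0.44 over its 20 tested neighbours, and 13 of the 15 with a mean of at least 100 were lower and none was higher (0 at an unadjusted p under 0.05, and 0 by edgeR and by DESeq2). Within 1 Mb of LATS2 the largest differences were those of the palmitoyltransferase gene ZDHHC20 (-0.89), SKA3 (-0.70), MICU2 (-0.71) and the connexin gene GJB2 (-1.70). The others there were smaller, and GJA3 (-0.14, limma, adjusted p = 0.18) and N6AMT2 (-0.21, adjusted p = 0.20) did not pass. CRIM1, at -0.68, lay beside 15 neighbours with a median of -0.60, and 11 of 12 above the minimum were lower. AJUBA, the gene that passed as higher under both treatments, lay among 79 neighbours with a median of 0.24, with 45 of 66 higher and 4 lower. Of all 18579 genes tested, without the minimum count, 25% were higher and 26.5% lower under vehicle.

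WWTR1 and CYR61 stood further from their neighbours, though most of these neighbours were lower in S134A-GR cells too. The median beside WWTR1 was -0.27 over 26 genes against -0.72 for WWTR1, and 2 of the 15 above the minimum were lower than it. Of those 15, 13 passed as lower in S134A-GR cells and 1 as higher. Beside CYR61 the median was -0.39 over 28 genes against -0.73, again with 2 of 19 below it. Of those 19, 16 passed as lower and 0 as higher. ANKRD1 (0.11 beside a median of -0.07) and TEAD4 (-0.10 beside 0.03) had the opposite sign to their neighbours, and the other 8 genes had the same sign. TGFβ1 left no such pattern: the median response of the neighbours above the minimum lay between -0.09 and 0.14 for all 10 genes in both lines. DNA copy number was not measured, and its part in the line differences was not tested.

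**Figure D3:**
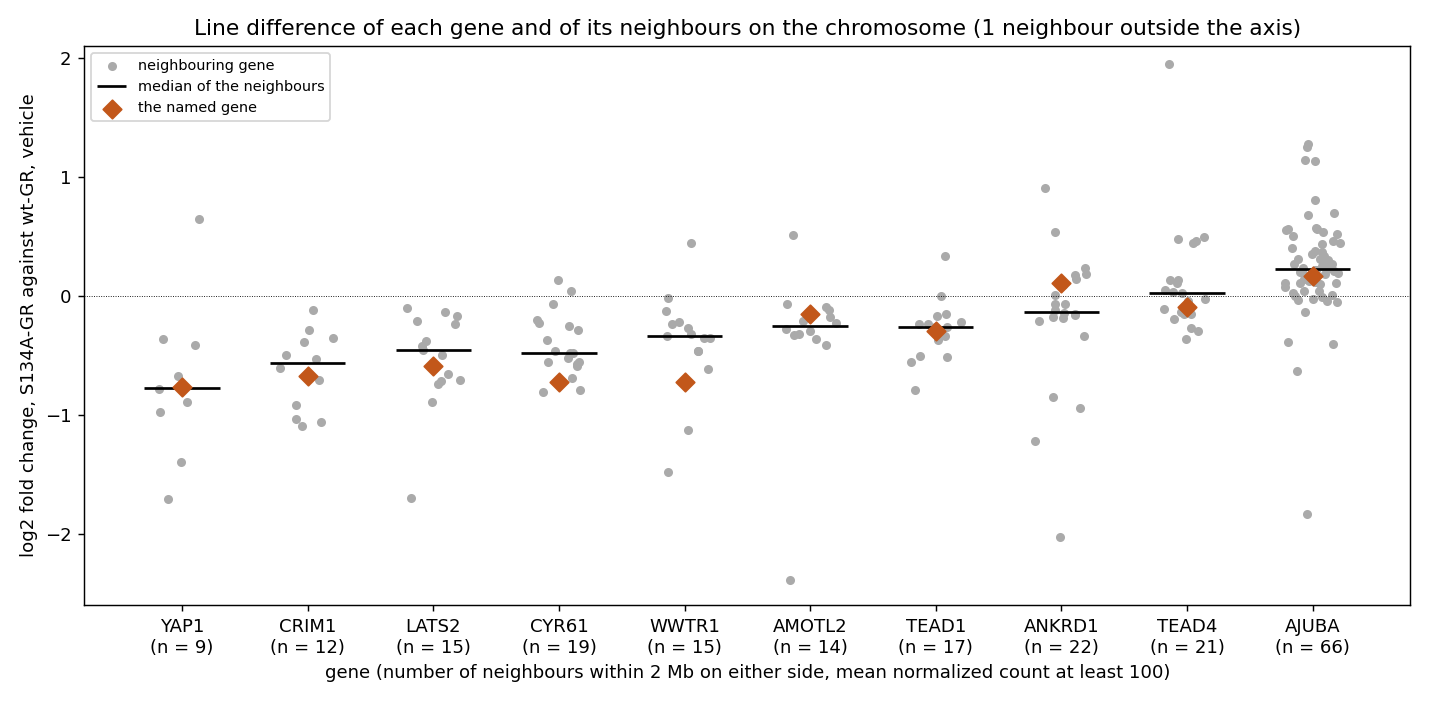
Line difference under vehicle (log2, S134A-GR against wt-GR) for each of the 10 genes (diamond) and for its neighbours within 2 Mb with a mean normalized count of at least 100 (grey points), with the median of those neighbours as a bar and 1 neighbour of AJUBA outside the axis. The diamonds of YAP1, CRIM1 and LATS2 sit among neighbours that are nearly all below 0, that of AJUBA among neighbours mostly above 0, and those of CYR61 and WWTR1 below most of their neighbours.

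The genes whose profile over the 12 libraries was most like that of YAP1 were the ubiquitin ligase genes UBE4A and CUL5, the microtubule-severing gene SPAST, ZBTB44 and ASAP2, with root mean square distances of 0.0356 to 0.0440 on the log2 scale, out of 12468 genes. UBE4A, CUL5 and ZBTB44 lie on chromosome 11, as YAP1 does, and SPAST and ASAP2 on chromosome 2. The share of the 12468 genes on these chromosomes is not given here, so the places are description only. YAP1 differed between the lines and passed in neither TGFβ1 response, so likeness to it mostly reflects the line difference. By the same measure WWTR1 was 110th in likeness to YAP1. For CYR61 the nearest were NARS2, POMP, RPS7, TNFRSF10D and MARCH2, at 0.0683 to 0.0782. CRIM1 was 168th and LATS2 261st in likeness to CYR61, and ANKRD1 was 7777th.

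Other genes of the pathway were read from 4 lists, also chosen with earlier results of these data known. Of 13 Hippo kinases and regulators, 4 were higher and 7 lower in S134A-GR than in wt-GR cells with vehicle, and 4 and 4 with TGFβ1, where 25% and 26.5% of all tested genes were higher and lower with vehicle and 23.1% and 25.7% with TGFβ1. The LATS co-activator MOB1A was 1.53-fold lower under both treatments (log2 fold change -0.61 and -0.62, SE 0.05 each; adjusted p = 1.5e-07 and 1.6e-07), and the kinase gene LATS1 was at -0.45 (adjusted p = 0.00074) and -0.30 (adjusted p = 0.012). The kinase gene TAOK1 was lower under vehicle (-0.33, adjusted p = 0.019) with overlapping libraries. TAOK3 was higher under vehicle (0.21, adjusted p = 0.00018) and under TGFβ1 (0.30, adjusted p = 6.8e-06). The median of the 13 was -0.17 under vehicle and 0.08 under TGFβ1.

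With TGFβ1, 3 of the 13 rose in wt-GR and 4 in S134A-GR cells, and none fell by limma or edgeR (2 and 1 were lower at an unadjusted p under 0.05, and DESeq2 called TAOK3 lower in wt-GR cells, at -0.10). Of all genes, 11.2% rose and 9.82% fell in wt-GR cells and 10% and 8.69% in S134A-GR cells, so the absence of falls in a list this short is not a result about it. FRMD6, a scaffold upstream of the Hippo kinases, went from 24073, 24872 and 24057 to 36241.5, 37922.5 and 37969 in wt-GR cells and from 26861, 27263 and 27942 to 44219, 42593 and 46439.8 in S134A-GR cells. Every TGFβ1 library of FRMD6 was above every vehicle library, with log2 fold changes of 0.62 and 0.70 (SE 0.04 each; adjusted p = 2.2e-08 and 7.8e-09). The scaffold genes WWC2 (0.34 and 0.37) and WWC1 (0.23 and 0.25) rose in both lines as well. The median response of the list was -0.06 in wt-GR and 0.11 in S134A-GR cells.

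Of 6 further TEAD genes and TEAD cofactors, 4 were analysed here. VGLL3, a Vestigial-like protein that binds TEADs, had 943, 895 and 787 in wt-GR cells with vehicle and 2303, 2449.5 and 2489 with TGFβ1. Its S134A-GR counts were 883, 934 and 796 with vehicle and 2142, 1876 and 1886 with TGFβ1. VGLL3 thus rose 2.76-fold and 2.26-fold (log2 fold change 1.47 and 1.18, SE 0.08 each; adjusted p = 1.1e-08 and 1.3e-07), more than any of the 10 genes, and the difference of -0.29 between the responses did not pass (adjusted p = 0.44). Between the lines 1 of the 4 was higher (TEAD2, 0.17) and 1 lower (VGLL4, -0.14) under vehicle, near the 25% and 26.5% of all genes, and 1 was higher (TEAD2, 0.21) and 2 were lower (VGLL3, -0.30; VGLL4, -0.29) under TGFβ1, against 23.1% and 25.7%. In each line 2 of the 4 rose with TGFβ1, VGLL4 (0.21) beside VGLL3 in wt-GR and TEAD3 (0.16) beside it in S134A-GR cells, against 11.2% and 10% of all genes. The list medians were -0.04 and -0.13 between the lines and 0.13 and 0.11 for the responses.

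The list of 4 angiomotin and LIM scaffolds had 1 gene higher and 2 lower between the lines under vehicle, and 2 lower under TGFβ1, against 25% and 26.5% of all genes higher and lower under vehicle and 25.7% lower under TGFβ1. AMOTL1, the paralog of AMOTL2, was lower under both treatments (log2 fold change -0.91 and -0.71, SE 0.09 each; adjusted p = 1.0e-06 and 1.2e-05), as was LIMD1 (-0.33 and -0.22), and WTIP was higher under vehicle (0.32). With TGFβ1, LIMD1, a relative of AJUBA, fell in both lines (-0.40 and -0.29; adjusted p = 2.5e-06 and 6.2e-05), and in wt-GR cells AMOTL1 fell (-0.31) and WTIP rose (0.32), where 9.82% of all genes fell and 11.2% rose in wt-GR cells and 8.69% fell in S134A-GR cells. AMOT itself was near 0, with at most 9.78 normalized counts in a library. Without AMOT, a choice made after seeing the data, the list medians were -0.33 and -0.22 between the lines and -0.31 and -0.11 for the responses, and with it they were -0.62 and -0.08, and -0.35 and -0.02.

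Of 17 further YAP/TAZ targets, 2 were higher and 8 lower in S134A-GR than in wt-GR cells with vehicle, and 4 and 5 with TGFβ1, against 25% and 26.5% of all genes with vehicle and 23.1% and 25.7% with TGFβ1, so the counts with TGFβ1 were those of the background. CTGF (now CCN2), the secreted relative of CYR61, had 22192, 23324 and 24229.5 in wt-GR cells with vehicle and 31473, 32429.6 and 33788 with TGFβ1. In S134A-GR cells CTGF had 15871, 16192 and 16601 with vehicle and 22189, 23889 and 26265 with TGFβ1. CTGF therefore separated both by line (log2 fold change -0.52 and -0.44, SE 0.05 each; adjusted p = 1.8e-06 and 1.0e-05) and by treatment (0.49 and 0.57; adjusted p = 1.3e-05 and 3.2e-06), and the difference of the responses was 0.08 (95% interval -0.08 to 0.24, adjusted p = 0.77).

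TGFB2, a TGFβ ligand on the same target list, was 2.05-fold lower in S134A-GR cells with vehicle (log2 fold change -1.03, SE 0.08, adjusted p = 1.0e-07) and 1.49-fold lower under TGFβ1 (-0.57, adjusted p = 3.2e-05). The transcription factor gene FOXF2 was higher (0.66 and 0.44; adjusted p = 3.0e-06 and 0.00014). With TGFβ1, 7 of the 17 rose and 2 fell in each line, against 11.2% and 9.82% of all genes in wt-GR and 10% and 8.69% in S134A-GR cells, and the falls were near that background. RBMS3 rose by 0.52 and 0.73 and CTGF by the values above. F3 (tissue factor) rose by 0.39 in wt-GR and 0.46 in S134A-GR cells, and IGFBP3 by 0.33 and 0.60. Each of these passed the test in both lines. The list medians were -0.14 and -0.01 between the lines and 0.06 and 0.11 for the responses. None of the 38 genes in these 4 lists passed for the difference of the responses by limma or edgeR, while 9 were at an unadjusted p under 0.05 and DESeq2 called 2, TGFB2 (0.46) and IGFBP3 (0.28).

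**Figure D4:**
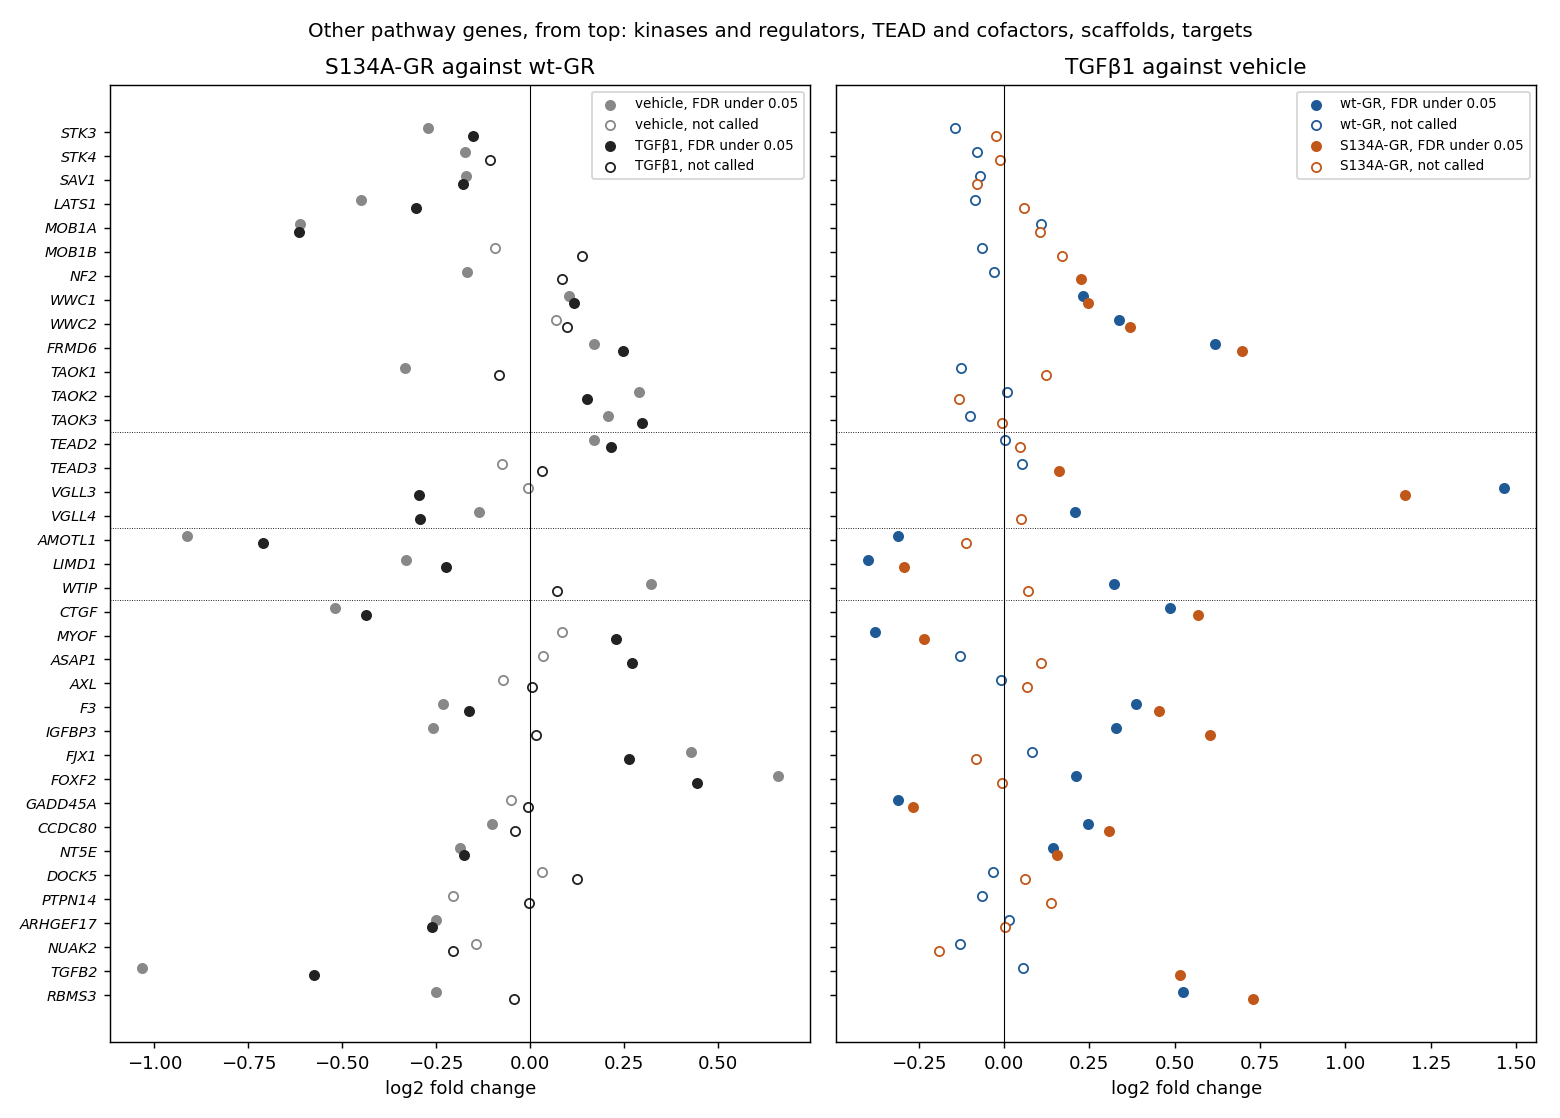
Log2 fold change of the other pathway genes (AMOT left out for its low counts), S134A-GR against wt-GR on the left and TGFβ1 against vehicle on the right, with filled points for an adjusted p under 0.05. VGLL3 stands furthest right among the responses, at 1.47 and 1.18, and TGFB2 and AMOTL1 furthest left among the line differences under vehicle, at -1.03 and -0.91.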

How the data were processed

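RNA-seq was done on 12 libraries (TruSeq, HiSeq2500, 75-base paired-end). The authors trimmed with Trimmomatic, aligned to hg38 with HISAT2, counted with featureCounts and divided by DESeq2 (1.22.2) size factors; the deposited values are these normalized counts, a depth-scaled signal per gene symbol. Annotation and strand setting are not given in the sources used here. Whole reads were recovered (100% of values whole within 0.1 read); their totals exceed the mean depth given in the labels, and whether mates were counted separately is not given.

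Genes with at least 10 reads in all were tested with limma (3.58.1, R 4.3.3) on log2(normalized count + 1), with 4 group means, a variance trend and two-sided Benjamini-Hochberg adjusted p-values. Fold changes are on that scale. On recovered reads, edgeR (4.0.16) called 9452, 9106, 3892, 3450 and 78 genes in the 5 comparisons, in the order of the report. DESeq2 (1.42.0) was also run. Pipelines were tested on simulated data.

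Positions came from GENCODE v44 (GRCh38) by symbol. The members and lists were chosen with earlier results of these data known. Text values were given for all 10 members, CTGF, and up to 3 genes with the largest called changes per list and comparison (mean of at least 100). Profiles were compared among genes with that mean, each centred on its own mean.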

Additional observations from a re-analysis of the deposited data

Results flagged for a closer look

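The response of AMOTL2 to TGFβ1 differed between the lines by 0.32 on the log2 scale (S134A-GR minus wt-GR, SE 0.06), by limma's test of the difference itself (adjusted p = 0.042). The response was -0.50 in wt-GR and -0.19 in S134A-GR cells. The call for the difference was lost in 10 of 21 alternatives, each a fit with 1 library left out, and the adjusted p reached 0.15.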

How the results depend on the processing

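Of 1090 values of a member under an alternative, 1043 kept their direction and their side of the threshold, 27 lost and 14 gained the call and 6 changed sign. The sign changes were in uncalled values with 1 library left out: TEAD1 in wt-GR cells (0.053, range -0.12 to 0.053), LATS2 in S134A-GR cells (-0.0044 to 0.048) and WWTR1 for the difference of responses (0.0049, 0.0027, 0.0089 and 0.022, range -0.062 to 0.022). Asking also for a log2 change of size 1 or more left 0 called members in each of the 5 comparisons. With 1 library left out, 8 to 9 members were called between the lines under vehicle, 8 to 10 under TGFβ1, 3 to 6 for the response of wt-GR cells, 6 to 7 for that of S134A-GR cells and 0 to 1 for the difference of responses; these fits hold fewer samples, and an arm of 2. A fit of only the compared groups was not run for the difference of responses, which needs all 4 groups. Same-numbered libraries did not deviate together (mean r 0.000878, range -0.155 to 0.154, over 12468 genes), so no pairing by number was visible. Whether same-numbered samples were handled together is not stated and cannot be told from these values. With the replicate number as a block, 9, 10, 5, 6 and 1 members were called, ANKRD1 gaining the call between the lines under vehicle, just under the threshold; it also gained it without wt-GR vehicle replicate 3. The neighbour medians moved little when only neighbours with a mean of at least 100 were kept, an alternative chosen after seeing the data (YAP1 -0.78, CYR61 -0.48). With 3 libraries a group, small differences such as that of TEAD4 under vehicle could not be settled.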
